A study of Mus musculus with 6 samples.

Results

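The genes described here are 50 genes of central carbon metabolism and the hypoxia response: 24 of glycolysis, glucose uptake and lactate handling, 3 that set or carry pyruvate dehydrogenase activity, 5 of the pentose phosphate pathway, 11 of the tricarboxylic acid (TCA) cycle and 7 of the hypoxia-inducible factor (HIF) response. They were chosen by name. A probe was taken as a member if the gene name printed in the scanner files was a member's symbol, which gave 78 of 55681 non-control probes and at least 1 probe for each of the 50 genes, of 23808 named genes on the array. The array files call the pyruvate kinase gene Pkm2 and the endoplasmic reticulum oxidase gene Ero1l (now Pkm and Ero1a), and those names are kept.

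The samples were RAW264.7 cells, an established line of mouse macrophages. The 3 AEPS samples had been exposed for 4 h to 50 µg/ml of AEPS, a polysaccharide from the roots of the plant Actinidia eriantha, and the 3 control samples to DMEM culture medium without it. Both groups were grown in DMEM with serum and antibiotics, and the labels name no other treatment or genotype. Total RNA was labelled with Cy3 and read on 1-colour Agilent arrays.

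Within each group the files of replicates 1 and 2 were copies of each other and were treated as a single sample, so the scanner files give 2 distinct arrays per group. The authors' value table held 3 distinct columns per group. Its replicate 1 and 2 columns ranked the probes as the 2 distinct scanner arrays did, and its replicate 3 columns matched no scanner file, so the table is not an independent experiment but adds 1 sample per group. Members that passed in at least 1 source are therefore given from both, and the others from the table unless stated. Whether the replicates were separate cultures is not stated in the labels. The p-values reflect only how far these samples differ from each other, and that spread may be technical. All 9 macrophage markers were well above background on every array. Of markers of other cells, Cd3e, Cd4, Cd79a, Col1a2 and Kdr were well above background on every array and none of the 4 epithelial markers was. Of the 9 macrophage markers 1 rose in the scanner fit (Ptprc, 0.93 ± 0.15), and 3 rose (Ptprc, Spi1 and Adgre1) and 2 fell (Csf1r by 0.36 ± 0.07 and Tyrobp by 0.43 ± 0.07) in the table. With the slide as a block Csf1r and Tyrobp also fell on the scanner arrays (adjusted p 0.0371 and 0.0377). No marker of another cell type passed in the scanner fit by limma, where 1 had an unadjusted p under 0.05, and in the table the T cell marker Cd8a fell by 1.69 ± 0.27. With the block Cd8a and Cd4 were lower on the scanner arrays (adjusted p 0.0336 and 0.0478), and Cd3e, Cd4, Cd8a and Col1a2 in the table (0.0379, 0.0115, 0.00591 and 0.0168). Their part in the results below was not tested.

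Glycolysis splits glucose into pyruvate, which is either reduced to lactate or carried into mitochondria, where pyruvate dehydrogenase feeds it to the TCA cycle. The pentose phosphate pathway branches off at glucose phosphate and yields NADPH and ribose. HIF is a transcription factor of an alpha subunit, degraded when oxygen is plentiful, and a constant beta subunit. In macrophages, inflammatory stimuli are known to raise the alpha subunit even in air, and its targets include glucose transporters, glycolytic enzymes and angiogenic factors.

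Levels are given on a log2 scale. A change is AEPS minus control on that scale with its standard error, so that 1 is a doubling. In the scanner fit a level is log2 of the processed signal relative to the 75th percentile of its array, whereas the table's levels are the authors' own normalized log2 values. Both were tested with limma and Benjamini-Hochberg adjustment over 25929 features, with an adjusted p of 0.05 as the threshold. Of the 50 members 48 were tested. Ldhb, a lactate dehydrogenase subunit, and Egln1, a HIF prolyl hydroxylase, were not well above background on any array.

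In the scanner fit 4 members rose and 1 fell. Ero1l, Vegfa, Hif1a and the glycolytic activator gene Pfkfb3 rose, and the cytosolic aconitase gene Aco1 fell. This is 10.4% of the 48 members, beside 7.11% of all features (4.17% higher and 2.94% lower) and 8.71% of features with a gene name. By the value table the count was 14 higher and 6 lower, or 41.7%, beside 33.4% of all features (17.1% higher and 16.4% lower) and 41.0% of named features. As a whole the 48 members therefore passed about as often as other named genes. All 5 members that passed in the scanner fit also passed in the table, and all 20 that passed in the table had the same sign in the scanner fit. The sources share arrays, so this is not an agreement of independent data.

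Of the groups, the HIF genes departed most from all features. The 6 tested HIF genes had a median change of 0.81 in the scanner fit and 0.78 in the table, beside -0.19 and -0.06 over all features. Of the HIF genes 3 rose in the scanner fit (50.0%) and 5 in the table (83.3%). The glycolysis genes had medians of -0.22 and -0.02, with 1 of 23 past in the scanner fit and 8 in the table, of which 5 rose and 3 fell. The TCA cycle genes had medians of -0.05 and 0.04, with 1 of 11 past in the scanner fit and 3 higher and 1 lower in the table. None of the 5 pentose phosphate genes passed in the scanner fit by limma, where 1 had an unadjusted p under 0.05, and 2 fell in the table, with medians of -0.22 and -0.08. Of the 3 pyruvate dehydrogenase genes none passed in the scanner fit, where 1 had an unadjusted p under 0.05, and 1 rose in the table. The shares past in the table were 34.8% for glycolysis, 36.4% for the TCA cycle, 40.0% for pentose phosphate and 33.3% for pyruvate dehydrogenase. Those over all features and named features were 33.4% and 41.0%. These medians and shares are descriptions and were not tested, since the genes were chosen with earlier results known. In bulk RNA, fewer cells that hold a transcript and less of it per cell cannot be told apart.

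**Figure D1:**
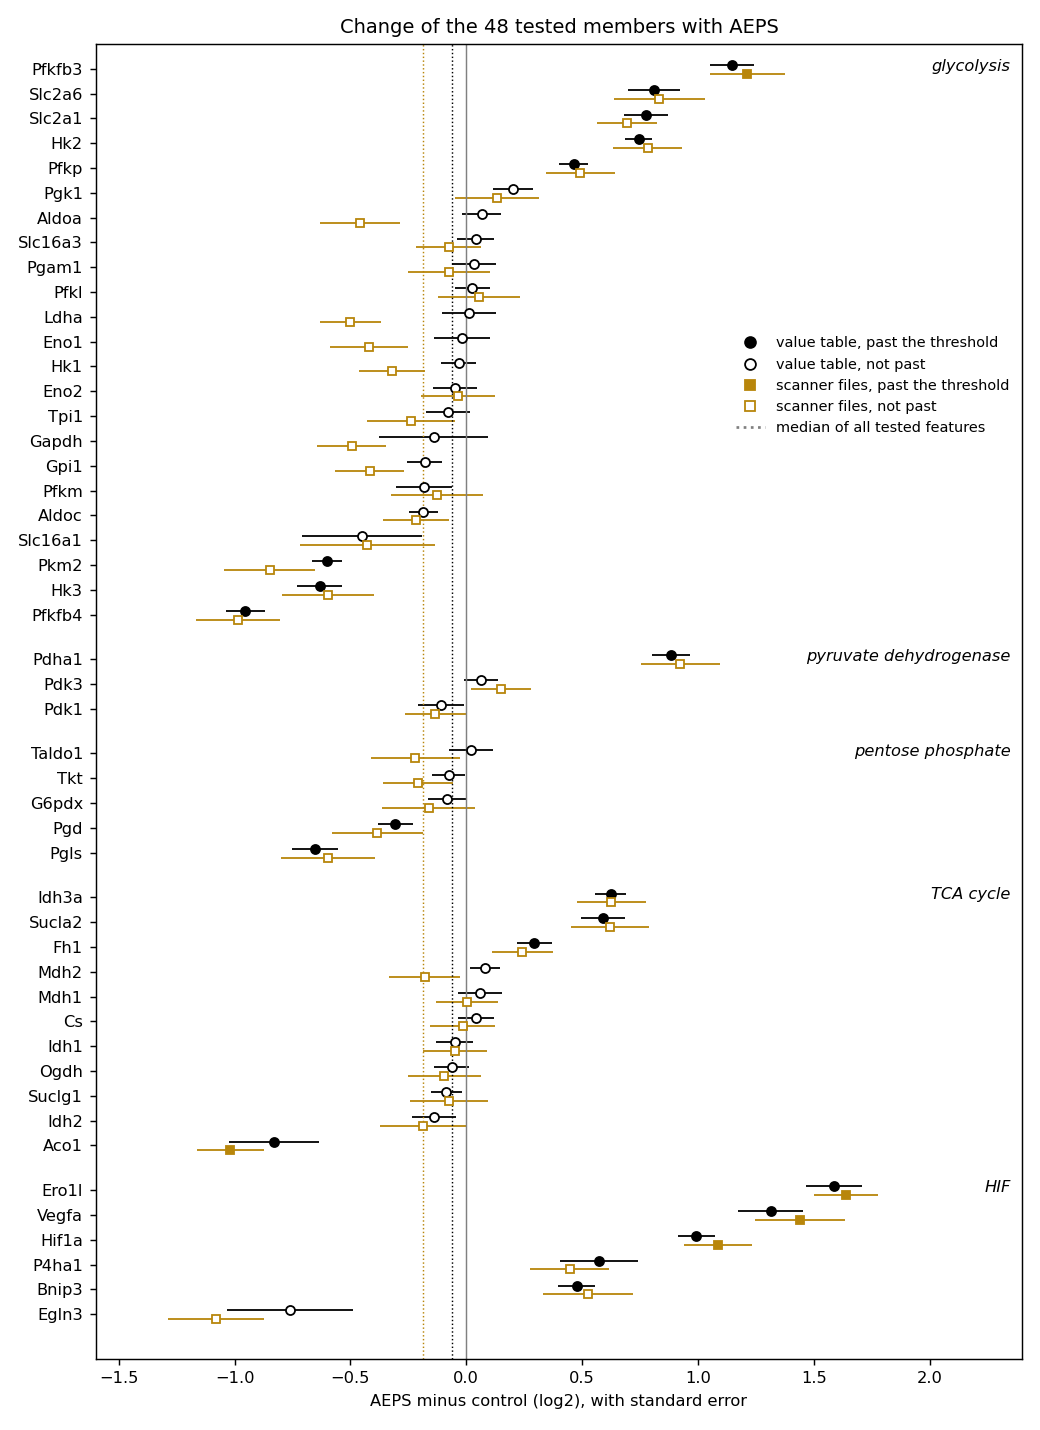
Change with AEPS (AEPS minus control, log2; bars are standard errors) of the 48 tested members, in the authors' value table (circles, 3 samples per group) and in the scanner files (squares, 2 distinct arrays per group), filled where the gene passed an adjusted p of 0.05. Of the filled circles 14 lie above 0 and 6 below, and the HIF genes hold the largest rises, Ero1l (1.59) and Vegfa (1.31).

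Hif1a encodes the regulated alpha subunit of HIF. Its table values were 8.69, 8.83 and 8.86 in the control samples and 9.78, 9.85 and 9.73 with AEPS. Every AEPS sample lay above every control sample, and within each group the samples differed by less than 0.2. The change was 0.99 ± 0.08 in the table (adjusted p 0.000859) and 1.09 ± 0.15 in the scanner fit (adjusted p 0.0399), a 2.12-fold rise by limma. A second Hif1a probe was not well above background on any array.

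Ero1l encodes an oxidase of the endoplasmic reticulum that drives disulfide bond formation and is a known HIF target. It read 6.87, 7.07 and 7.24 in the control columns of the table and 8.62, 8.77 and 8.55 with AEPS. The lowest AEPS sample was more than 1 unit above the highest control sample. The scanner arrays read -1.50 and -1.49 in control and 0.07 and 0.22 with AEPS. The change was 1.59 ± 0.12 in the table (adjusted p 0.000772) and 1.64 ± 0.14 in the scanner fit (adjusted p 0.0227), a 3.12-fold rise and the largest change of any member in both sources.

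Vegfa encodes vascular endothelial growth factor, the secreted signal for vessel growth. The table gave 8.65, 8.91 and 9.11 for the control samples and 10.07, 10.28 and 10.26 for AEPS. The groups did not overlap, and the control samples were spread more widely than the AEPS samples. The change was 1.31 ± 0.14 in the table (adjusted p 0.00198) and 1.44 ± 0.19 in the scanner fit (adjusted p 0.0384), a 2.71-fold rise. A second Vegfa probe changed by 1.14 ± 0.19 on the scanner arrays and passed as well when every probe was fitted on its own (adjusted p 0.0455).

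With 2 distinct scanner arrays per group these calls rest on every array. Leaving out the control array of replicates 1 and 2, that of replicate 3 or the AEPS array of replicate 3 left Ero1l, Vegfa and Hif1a short of the threshold, with adjusted p of 0.0563 to 0.138 for Ero1l, 0.0941 to 0.181 for Vegfa and 0.135 to 0.210 for Hif1a. Without the AEPS array of replicates 1 and 2, Ero1l alone passed. In the table the 3 genes passed whichever column was left out.

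Bnip3 and P4ha1 rose in the table and not in the scanner fit. Bnip3 encodes a mitochondrial protein that promotes removal of mitochondria. In the table it read 12.18, 12.36 and 12.29 in control and 12.71, 12.83 and 12.72 with AEPS, without overlap (0.48 ± 0.08, adjusted p 0.0086). On the scanner arrays its change was 0.53 ± 0.19 and did not pass (adjusted p 0.161), but it passed with the slide as a block (adjusted p 0.0413). P4ha1 encodes the catalytic subunit of collagen prolyl hydroxylase. Its table values were 7.24, 7.58 and 7.58 in control and 7.76, 8.10 and 8.26 with AEPS, the highest control values lying just under the lowest AEPS value. Its change of 0.57 ± 0.17 was at the threshold (adjusted p 0.0496). The scanner fit gave 0.45 ± 0.17 (adjusted p 0.167), which passed with the slide as a block (0.0455), and a dimmer second P4ha1 probe read 0.14 ± 0.16. Leaving out any 1 column other than AEPS replicate 1 ended the P4ha1 call, with adjusted p of 0.0817 to 0.138.

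Egln3, a HIF prolyl hydroxylase that marks the alpha subunit for degradation and is itself a known HIF target, went the other way without passing. Its table values were 5.84, 5.98 and 5.98 in control and 4.56, 5.47 and 5.49 with AEPS. The groups did not overlap, and AEPS replicate 1 lay far below the other AEPS samples. The change was -0.76 ± 0.27 in the table (adjusted p 0.0839) and -1.08 ± 0.21 in the scanner fit (adjusted p 0.0627). Without AEPS replicate 1 it was -0.45 and passed (adjusted p 0.0258). A second Egln3 probe read -0.81 ± 0.17 on the scanner arrays. The first probe was dim there, at -3.82 and -3.37 with AEPS. The lowest signals counted as well above background on those arrays were -4.62 and -5.05. Its change was -0.91 after quantile normalization, -0.42 scaled to the spike-in probes and -0.36 after normexp with quantile normalization. In the table all 6 HIF genes had groups that did not overlap, 5 upward and Egln3 downward, beside 48.0% of all features.

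**Figure D2:**
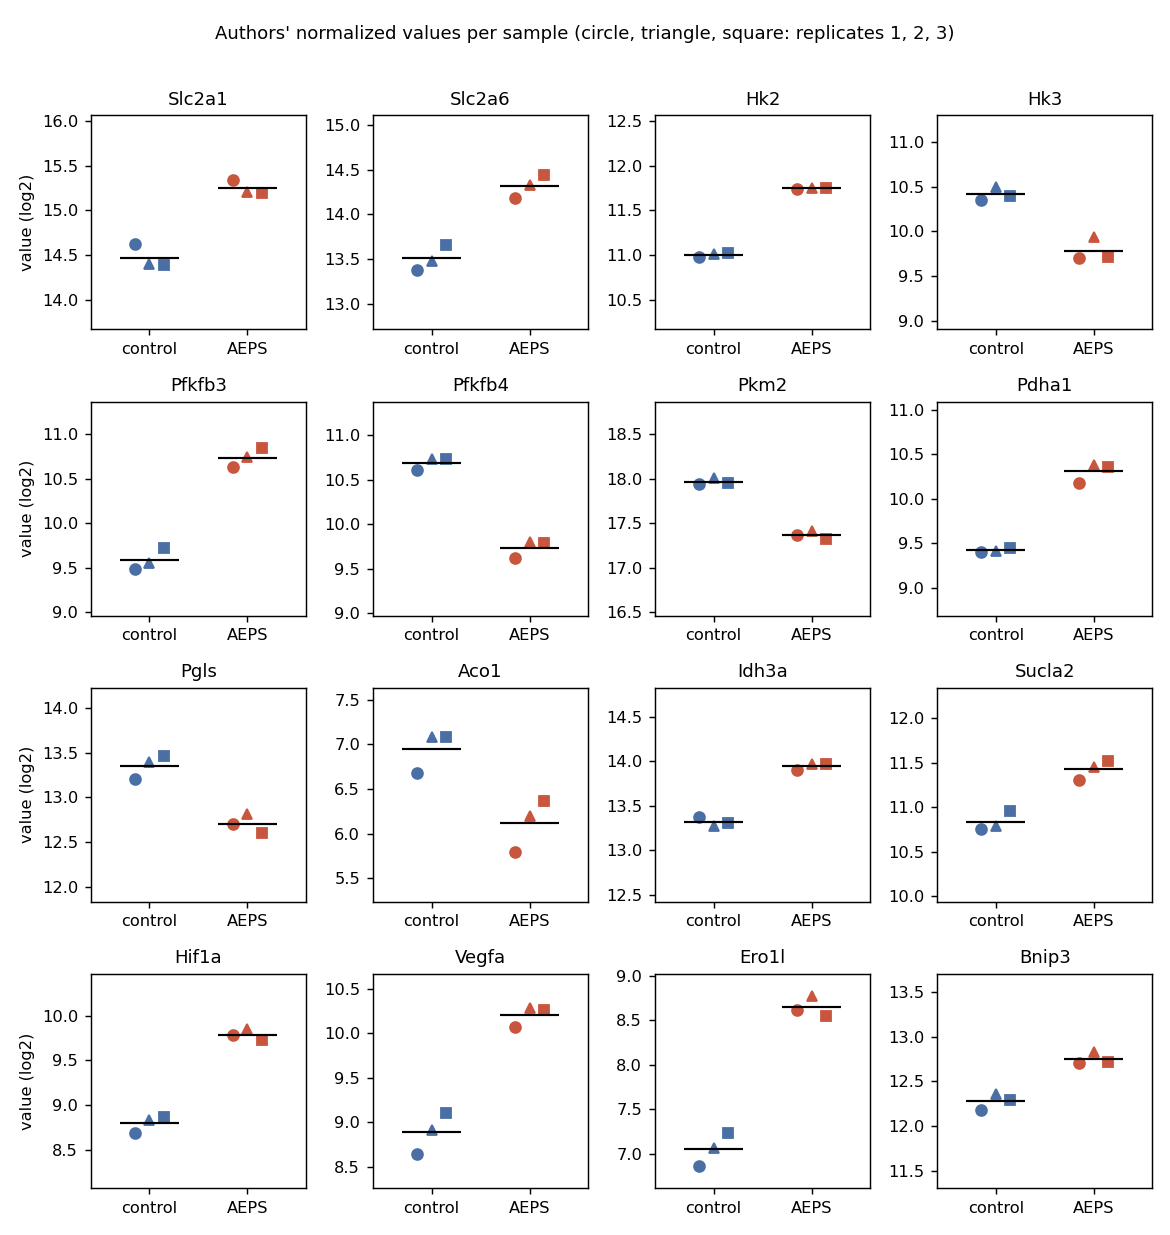
The authors' normalized log2 values of 16 members in each of the 3 control (blue) and 3 AEPS (red) samples, with the symbol giving the replicate and the bar the group mean. Every panel spans 2.4 log2 units, and in each panel the control and AEPS samples do not overlap. The 16 were taken from the 20 members that passed in the table, so their separated groups are no further result. Groups did not overlap for 52.1% of the tested members and 48.0% of all features.

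The sequence before the start site is shown for the 5 members that passed in the scanner fit, because HIF binds DNA at a short core, ACGTG or GCGTG. The lines give the 250 bases before each annotated RefSeq start (GRCm38.p6), 5′ to 3′ on the strand of the gene, with every ACGTG or GCGTG in capitals. A match on the other strand reads CACGT or CACGC.

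Ero1a (Ero1l on the array), chr14:45318573-45318822, minus strand: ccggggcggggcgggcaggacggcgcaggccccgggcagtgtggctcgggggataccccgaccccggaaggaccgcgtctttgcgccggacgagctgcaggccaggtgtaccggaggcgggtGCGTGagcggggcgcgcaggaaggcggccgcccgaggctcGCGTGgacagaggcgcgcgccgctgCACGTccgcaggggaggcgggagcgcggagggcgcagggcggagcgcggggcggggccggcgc

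Vegfa, upstream start, chr17:46032378-46032627, minus strand: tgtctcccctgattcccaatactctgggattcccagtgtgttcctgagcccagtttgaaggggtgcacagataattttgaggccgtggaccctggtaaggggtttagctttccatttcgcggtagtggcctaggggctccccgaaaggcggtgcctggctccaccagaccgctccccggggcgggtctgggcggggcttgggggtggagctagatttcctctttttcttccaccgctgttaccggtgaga

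Vegfa, downstream start, chr17:46025164-46025413, minus strand: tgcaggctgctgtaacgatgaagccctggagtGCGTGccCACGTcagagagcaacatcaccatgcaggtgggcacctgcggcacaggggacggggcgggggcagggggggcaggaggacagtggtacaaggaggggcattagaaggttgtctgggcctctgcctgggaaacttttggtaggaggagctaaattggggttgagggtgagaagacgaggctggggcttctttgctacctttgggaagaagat

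Pfkfb3, upstream start, chr2:11553930-11554179, minus strand: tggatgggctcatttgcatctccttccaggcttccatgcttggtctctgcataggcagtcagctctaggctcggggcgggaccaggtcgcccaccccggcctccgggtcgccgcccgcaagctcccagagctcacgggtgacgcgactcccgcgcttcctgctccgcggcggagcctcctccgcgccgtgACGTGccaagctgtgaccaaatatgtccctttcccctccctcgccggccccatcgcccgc

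Pfkfb3, downstream start, chr2:11502091-11502340, minus strand: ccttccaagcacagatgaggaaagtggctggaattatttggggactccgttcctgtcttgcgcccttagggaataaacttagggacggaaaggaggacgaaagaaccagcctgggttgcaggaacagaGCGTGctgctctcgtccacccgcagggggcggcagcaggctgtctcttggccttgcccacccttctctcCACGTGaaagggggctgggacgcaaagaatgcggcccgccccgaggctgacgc

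Hif1a, chr12:73907617-73907866, plus strand: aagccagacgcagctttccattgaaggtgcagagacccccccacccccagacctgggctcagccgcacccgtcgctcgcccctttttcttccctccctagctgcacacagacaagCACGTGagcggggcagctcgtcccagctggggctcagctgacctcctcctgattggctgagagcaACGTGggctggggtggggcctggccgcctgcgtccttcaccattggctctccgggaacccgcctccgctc

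Aco1, chr4:40143015-40143264, plus strand: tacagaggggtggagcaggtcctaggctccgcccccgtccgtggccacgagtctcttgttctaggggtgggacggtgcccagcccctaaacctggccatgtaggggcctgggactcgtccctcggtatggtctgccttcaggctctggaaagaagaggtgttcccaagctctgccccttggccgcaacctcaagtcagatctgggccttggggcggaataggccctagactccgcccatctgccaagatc

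In windows of 300 bases, 250 before and 50 after the start, the Ero1a promoter held 3 matches, Hif1a 3 and the downstream Pfkfb3 start 4. Of the last, 1 lies after the start and is not shown. The upstream Pfkfb3 start held 1. The downstream Vegfa start held 2, the upstream Vegfa start none, and the Aco1 promoter none. The downstream Vegfa and Pfkfb3 windows lie after the upstream start of the same gene. Both downstream Vegfa matches lie in a stretch that can be read without a stop as codons of the growth factor itself, so they may be exon letters. Whether either window is part of an exon was not tested, and sequence further upstream of any start was not read. In Hif1a and at the downstream Pfkfb3 start, 1 stretch reads CACGTG, the E-box recognised by MYC and related factors, which counts as a match on both strands.

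The same letters were common among all members. Of the 50 genes 49 had a promoter in the RefSeq table, with 70 promoters in all, some of them overlapping starts of 1 gene. Of these, 57 (81.4%) held ACGTG or GCGTG on either strand, beside 43.8% of all 32851 promoters of the same length. Without matches inside CACGTG the shares were 78.6% and 40.4%. CACGTG itself was in 12.9% of the member promoters and 7.15% of all, and the NF-kB consensus in 14.3% and 8.46%. The median GC content was 61.3% for the members and 52.7% for all promoters, and its part in these shares was not tested. By group, 7 of 8 HIF promoters, 29 of 36 glycolysis, 5 of 6 pentose phosphate, 13 of 16 TCA cycle and 3 of 4 pyruvate dehydrogenase promoters held a match, and without matches inside CACGTG the TCA cycle count was 11. The 7 HIF promoters include the downstream Vegfa start. A match is a description of the letters, not a binding site.

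Glycolysis did not move as a block. In the table both glucose transporters, 2 of 3 hexokinases, 1 of 3 phosphofructokinases and both regulators of phosphofructokinase passed. The isomerase gene Gpi1, 8 of 9 genes from aldolase to pyruvate kinase and the 3 tested lactate genes did not. Over the 23 tested glycolysis genes the share was 34.8%, beside 33.4% of all features and 41.0% of named features. With so few genes per step, the steps were not compared by a test. Slc2a1, the main glucose transporter of activated macrophages, read 14.62, 14.40 and 14.39 in control and 15.34, 15.21 and 15.19 with AEPS. It rose with the groups well apart, by 0.78 ± 0.10 (adjusted p 0.00313). Slc2a6, a lysosomal transporter of the same family, read 13.38, 13.48 and 13.66 in control and 14.18, 14.33 and 14.44 with AEPS and rose by 0.81 ± 0.11 (adjusted p 0.00447). In the scanner fit their changes were 0.69 ± 0.13 and 0.83 ± 0.20, with adjusted p of 0.0607 and 0.082, and both passed with the slide as a block (0.0364 and 0.0336).

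The 3 hexokinases, which trap glucose in the cell by phosphorylation, went 3 ways. Hk2, the inducible form, read 10.98, 11.01 and 11.02 in control and 11.74, 11.75 and 11.75 with AEPS, with replicates close together, and rose by 0.74 ± 0.06 (adjusted p 0.000857). Hk3, a form found in myeloid cells, read 10.35, 10.50 and 10.40 in control and 9.70, 9.94 and 9.71 with AEPS and fell by 0.63 ± 0.10 (adjusted p 0.00613). Hk1, the housekeeping form, read 17.71, 17.58 and 17.66 in control and 17.70, 17.56 and 17.59 with AEPS, with overlapping groups (-0.03 ± 0.08). By the scanner fit Hk2 changed by 0.78 ± 0.15 (adjusted p 0.0623) and Hk3 by -0.60 ± 0.20 (adjusted p 0.139). Both passed with the slide as a block (0.0341 and 0.037). The brightest Hk1 probe stood at -0.32 ± 0.14 on the scanner arrays, whereas dimmer Hk1 probes read -0.03 ± 0.17 and 0.32 ± 0.14.

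The bifunctional enzymes that make and destroy the activator of phosphofructokinase moved in opposite directions. Pfkfb3, the inducible form with high kinase activity, read 9.49, 9.56 and 9.72 in control and 10.63, 10.74 and 10.84 with AEPS. All AEPS samples were above all control samples, by 1.15 ± 0.10 in the table (adjusted p 0.00103) and 1.21 ± 0.16 in the scanner fit (adjusted p 0.0387), a 2.32-fold rise. Pfkfb4 read 10.61, 10.73 and 10.73 in control and 9.62, 9.80 and 9.79 with AEPS, a clear step down, and fell by 0.95 ± 0.08 (adjusted p 0.00115). The scanner fit gave Pfkfb4 a change of -0.98 ± 0.18 (adjusted p 0.059), which passed with the slide as a block (0.0336). Leaving out any 1 scanner array ended the Pfkfb3 call there, with adjusted p of 0.0631 to 0.198.

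The Pfkfb3 result rests on 1 probe. The brighter probe, at chr2:11393453-11393512 of mouse build mm9 per the array's annotation, read 0.90 and 1.06 in control and 2.08 and 2.32 with AEPS on the scanner arrays. The dimmer one, which spans chr2:11404189-11405602, read -3.66 and -3.52 in control and -3.78 and -3.43 with AEPS, a change of -0.01 ± 0.18. With the mean of both probes the change was 0.60 and did not pass (adjusted p 0.11). Which transcript each probe reads was not tested.

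Among the phosphofructokinases, which commit sugar phosphate to glycolysis, Pfkp rose by 0.46 ± 0.06 in the table (adjusted p 0.00452), from 11.23, 11.30 and 11.28 to 11.78, 11.71 and 11.71. A second Pfkp probe changed by -0.18 ± 0.13 on the scanner arrays, against 0.49 ± 0.15 for the first, which did not pass there (adjusted p 0.119). Pfkl and Pfkm did not pass, at 0.03 ± 0.08 and -0.18 ± 0.12.

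Of the 9 genes from aldolase to pyruvate kinase, 1 passed in the table. Pkm2, the gene of pyruvate kinase, which makes pyruvate in the last step of glycolysis, read 17.94, 18.01 and 17.95 in control and 17.37, 17.41 and 17.32 with AEPS and fell by 0.60 ± 0.06 (adjusted p 0.00208). The groups were separated by more than 0.5. Its scanner fit change was -0.85 ± 0.19 (adjusted p 0.0789), which passed with the slide as a block (0.0356). The remaining 8 genes of this stretch ranged from -0.19 to 0.20 in the table: Aldoa 0.07, Aldoc -0.19, Tpi1 -0.08, Gapdh -0.14, Pgk1 0.20, Pgam1 0.03, Eno1 -0.02 and Eno2 -0.05. Aldoc passed only with the replicate block (adjusted p 0.0365). Gpi1, which converts glucose phosphate to fructose phosphate before this stretch, stood at -0.18 ± 0.08.

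The brightest glycolysis probe, that of the aldolase gene Aldoa, read 18.77, 18.70 and 18.63 in control and 18.83, 18.82 and 18.65 with AEPS in the table, with overlapping groups. On the scanner arrays it read 10.34 and 10.65 in control and 9.97 and 10.10 with AEPS. The bright genes Aldoa, Gapdh, Ldha, Eno1, Gpi1 and Hk1 had changes of -0.50 to -0.32 in the scanner fit, where none passed and 3 (Gapdh, Ldha and Gpi1) had an unadjusted p under 0.05, and lay between -0.18 and 0.07 in the table. Their sign depended on the scaling: scaled to the spike-in probes, Gapdh stood at 0.16, Ldha at 0.16 and Aldoa at 0.20, and after quantile normalization at 0.01, -0.04 and 0.06. All 8 Gapdh probes read between -0.50 and -0.20 under the 75th percentile scaling. Per the array's annotation the brightest, which stood for the gene, lies on chromosome 7 and another on chromosome 8, whereas the Gapdh promoter lies on chromosome 6. The only Pgk1 probe is placed on chromosome 3, and the Pgk1 promoter lies on the X chromosome. Whether these probes read other loci was not tested. With the slide as a block Gpi1 (-0.42) and Ldha (-0.50) passed as lower (adjusted p 0.0495 and 0.0466).

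At the lactate end none of the 3 tested genes passed in either source by limma, where Ldha alone had an unadjusted p under 0.05 (0.019, scanner fit). Ldha, which reduces pyruvate to lactate, read 18.76, 18.49 and 18.50 in control and 18.70, 18.44 and 18.64 with AEPS, a change of 0.01 ± 0.12 in the table. Slc16a3, the lactate exporter, changed by 0.04 ± 0.08. Slc16a1, a transporter of lactate and pyruvate, read 8.71, 8.25 and 8.07 in control and 8.31, 7.85 and 7.52 with AEPS. Its groups overlapped, but each AEPS sample lay below the control sample of the same number, and with the replicate block its change of -0.45 passed (adjusted p 0.0106), as did Pfkm at -0.18 (adjusted p 0.0393).

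**Figure D3:**
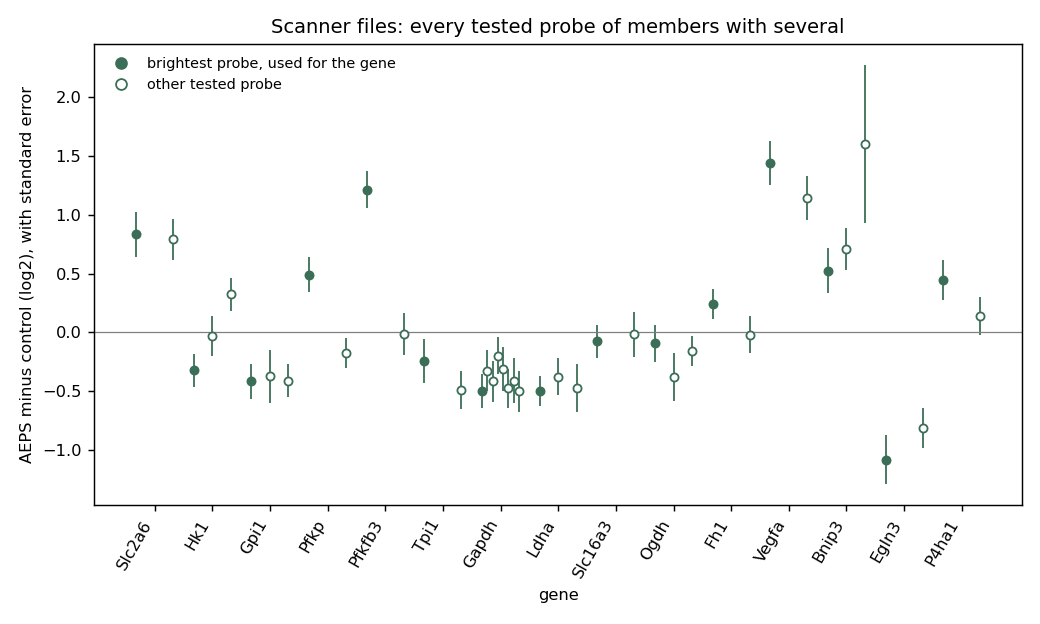
Change on the scanner arrays (AEPS minus control, log2, with standard error) of every tested probe of the 15 members that had several. The 2 Pfkfb3 probes read 1.21 and -0.01, both Vegfa probes lie above 1, both Egln3 probes lie below -0.5 and all 8 Gapdh probes lie below 0.

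At the entry to mitochondria, Pdha1, the catalytic alpha subunit of pyruvate dehydrogenase, rose in the table. Its values were 9.40, 9.42 and 9.45 in control and 10.18, 10.38 and 10.36 with AEPS, with nearly identical controls (0.88 ± 0.08, adjusted p 0.00128). The scanner fit gave 0.92 ± 0.17 (adjusted p 0.0594), which passed with the slide as a block (0.0361). The kinases that switch this enzyme off did not pass: Pdk1 changed by -0.11 ± 0.10 and Pdk3 by 0.06 ± 0.07 in the table. Pdk1 is a known HIF target. The brightest probe of this group, that of Pdk3, read 10.05, 10.01 and 10.13 in control and 10.21, 10.07 and 10.10 with AEPS, with overlap.

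In the pentose phosphate pathway the oxidative steps after the first were lower in the table. Pgls, the lactonase of the second step, read 13.21, 13.40 and 13.46 in control and 12.70, 12.81 and 12.60 with AEPS and fell by 0.65 ± 0.10 (adjusted p 0.00646). Pgd, which releases the second NADPH, read 15.62, 15.66 and 15.74 in control and 15.28, 15.43 and 15.39 with AEPS and fell by 0.31 ± 0.08 (adjusted p 0.0289). The groups did not overlap for either gene. On the scanner arrays Pgls stood at -0.60 ± 0.20 (adjusted p 0.143) and Pgd at -0.38 ± 0.20 (adjusted p 0.258), and Pgls passed with the slide as a block (0.0418). The Pgd call ended when any 1 column other than control replicate 1 was left out (adjusted p 0.0653 to 0.0869).

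G6pdx, the rate-limiting dehydrogenase of the first step, did not pass, at -0.08 ± 0.08 in the table. The enzymes of the non-oxidative branch, Tkt (transketolase) and Taldo1 (transaldolase), stood at -0.08 ± 0.07 and 0.02 ± 0.09. Taldo1 read 17.30, 17.32 and 17.52 in control and 17.30, 17.42 and 17.48 with AEPS, with overlapping groups. Scaled to the spike-in probes, Pgls and Pgd read 0.06 and 0.28, Hk3 0.06 and Pkm2 -0.19, so the falls of Pgls, Pgd and Hk3 are relative to the rest of the array.

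In the TCA cycle, Aco1 was the member that passed in both sources. It encodes the cytosolic aconitase, which also serves as an iron sensor that binds RNA, and so lies outside the mitochondrial cycle. Its table values were 6.68, 7.08 and 7.08 in control and 5.79, 6.20 and 6.36 with AEPS. The groups did not overlap, and replicate 1 was the lowest sample of both. Aco1 fell by 0.83 ± 0.19 in the table (adjusted p 0.0239) and by 1.02 ± 0.14 in the scanner fit (adjusted p 0.042), to 0.494 of the control level. The scanner call did not hold after quantile normalization (-0.88, adjusted p 0.0957), normexp with quantile normalization (-0.52, adjusted p 0.101) or spike-in scaling (-0.36, adjusted p 0.253), nor when any 1 scanner array was left out (adjusted p 0.0938 to 0.210). The table call ended without control replicate 2, control replicate 3 or AEPS replicate 2 (adjusted p 0.0833, 0.0712 and 0.0646).

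Inside the mitochondrial cycle 3 subunit or enzyme genes rose in the table. Idh3a, the catalytic subunit of the NAD-dependent isocitrate dehydrogenase, read 13.38, 13.28 and 13.31 in control and 13.90, 13.97 and 13.97 with AEPS (0.62 ± 0.07, adjusted p 0.00199). Sucla2, a subunit of the ATP-forming succinyl-CoA synthetase, read 10.76, 10.79 and 10.96 in control and 11.31, 11.45 and 11.52 with AEPS (0.59 ± 0.09, adjusted p 0.00733). Neither gene's groups overlapped. Fh1, fumarate hydratase, rose by 0.29 ± 0.08 (adjusted p 0.0335), a call that ended when any 1 column other than control replicate 1 was left out (adjusted p 0.0908 to 0.111). A second Fh1 probe of similar brightness read -0.02 ± 0.16 on the scanner arrays. On the scanner arrays Idh3a stood at 0.63 ± 0.15 (adjusted p 0.0837), Sucla2 at 0.62 ± 0.17 (adjusted p 0.101) and Fh1 at 0.24 ± 0.13 (adjusted p 0.281), and the first 2 passed with the slide as a block (0.0419 and 0.0388).

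The other 7 genes of the cycle did not pass in either source. In the table citrate synthase (Cs) stood at 0.04, the NADP-dependent isocitrate dehydrogenases Idh1 and Idh2 at -0.05 and -0.14, Ogdh of the oxoglutarate dehydrogenase complex at -0.06, the succinyl-CoA synthetase subunit Suclg1 at -0.09, and the malate dehydrogenases Mdh1 and Mdh2 at 0.06 and 0.08. Mdh2, whose probe was the brightest of the cycle, read 17.48, 17.38 and 17.48 in control and 17.54, 17.51 and 17.53 with AEPS, narrowly without overlap.

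**Figure D4:**
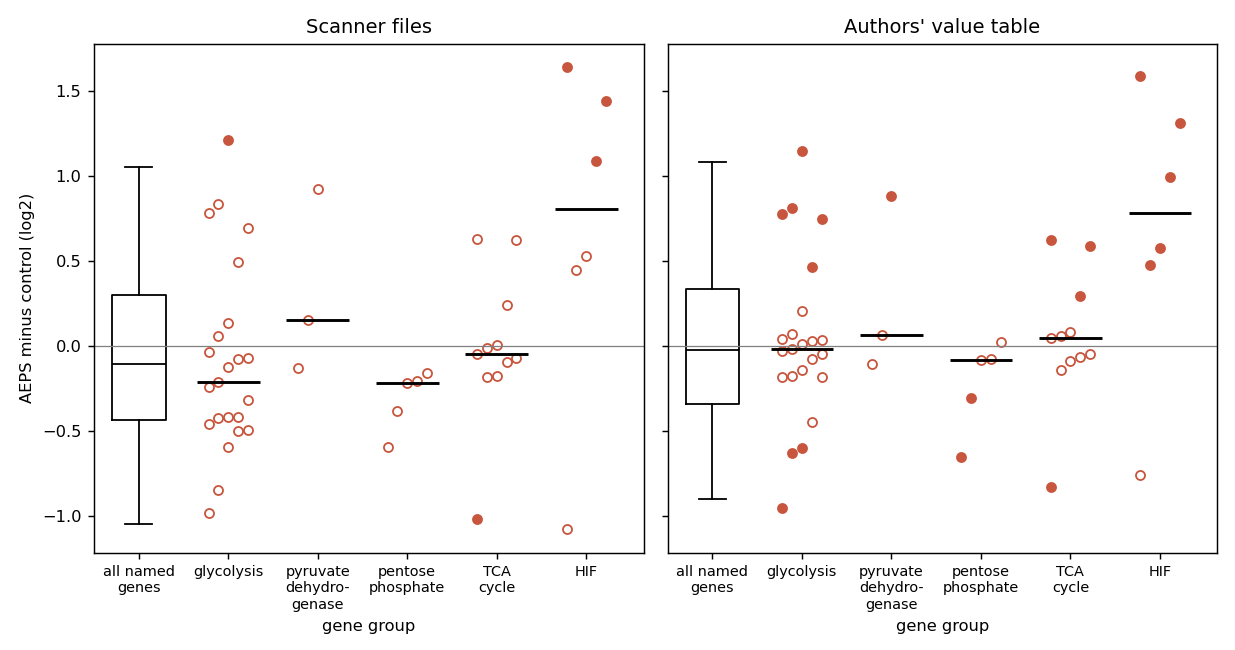
Change with AEPS (log2) of all tested genes with a name (box: quartiles and median; whiskers: 5th and 95th percentile) and of the tested members of each group (points, filled where the gene passed; bar: group median), in the scanner files and in the authors' value table. The HIF median is 0.81 and 0.78, whereas the glycolysis, pentose phosphate and TCA cycle medians lie between -0.22 and 0.04.

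Further genes of the same pathways were read from lists of their own. Of 23 further HIF pathway genes tested, 2 rose and 1 fell in the scanner fit, and 9 rose and 6 fell in the table, with medians of 0.15 and 0.13. These are 13.0% and 65.2%, beside 7.11% and 33.4% of all features and 8.71% and 41.0% of named features. Adm, which encodes the vasodilator peptide adrenomedullin, rose by 2.86 ± 0.21 in the scanner fit (adjusted p 0.0207). Ankrd37, an ankyrin repeat gene known as a HIF target, fell by 1.38 ± 0.15 (adjusted p 0.0293). Arnt, the beta subunit of HIF, and Epas1, a second alpha subunit, did not pass in either source (0.27 ± 0.21 and -0.39 ± 0.18 in the scanner fit).

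Of 21 further glycolysis and pyruvate genes tested, 2 rose and 1 fell in the scanner fit, and 7 rose and 4 fell in the table. These are 14.3% and 52.4%, beside the same shares of all features (7.11% and 33.4%) and of named features (8.71% and 41.0%). Tigar, a phosphatase that removes the activator of phosphofructokinase, rose by 1.01 ± 0.13 (adjusted p 0.0378). Dld, the dehydrogenase subunit shared by the pyruvate and oxoglutarate complexes, rose by 0.99 ± 0.16 (adjusted p 0.0482). Slc2a8, an intracellular glucose transporter, fell by 0.86 ± 0.13 (adjusted p 0.0458). Slc2a3, a high-affinity glucose transporter, stood at -0.41 ± 0.17 in the scanner fit and fell by 0.47 ± 0.08 in the table (adjusted p 0.00783).

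Among 21 further genes of the TCA cycle and its feeders, 1 rose in the scanner fit, and 3 rose and 6 fell in the table. These are 4.76% and 42.9%, beside 7.11% and 33.4% of all features and 8.71% and 41.0% of named features. Acod1, which diverts aconitate to itaconate in activated macrophages, rose by 4.77 ± 0.16 (adjusted p 0.00845), from 3.88 and 4.09 on the control arrays to 8.67 and 8.84 with AEPS. Sdha, the catalytic subunit of succinate dehydrogenase, stood at 0.15 ± 0.13 in the scanner fit and 0.20 ± 0.07 in the table (adjusted p 0.0682), where it passed with the replicate block (0.0412). None of 7 further pentose phosphate and ribose genes passed in the scanner fit by limma, where 1 had an unadjusted p under 0.05, and 1 rose and 1 fell in the table (28.6%).

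Of 13 regulators of glucose metabolism, 1 rose and 2 fell in the scanner fit, and 4 rose and 5 fell in the table. These are 23.1% and 69.2%, beside 7.11% and 33.4% of all features and 8.71% and 41.0% of named features. Myc, a transcription factor that drives many glycolytic genes, rose by 2.86 ± 0.14 (adjusted p 0.0104). Txnip, which restrains glucose uptake, fell by 0.81 ± 0.13 (adjusted p 0.0492). Ppargc1b, a coactivator of mitochondrial genes, fell by 1.46 ± 0.19 (adjusted p 0.0378). With the slide as a block the scanner counts became 6 higher and 4 lower for the further HIF genes, 5 and 3 for glycolysis and pyruvate, 1 and 3 for the TCA cycle, 1 and 0 for pentose phosphate and ribose, and 4 and 4 for the regulators, beside 13.0% and 16.8% of all features.

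How many members passed depended on the treatment of the slides. Each slide carried 1 control and 1 AEPS array, and with the slide as a replicate block 12 members rose and 7 fell in the scanner fit, beside 29.8% of all features (13.0% higher and 16.8% lower). In the table the replicate number as a block gave 14 higher and 9 lower members, beside 49.8% of all features (23.5% higher and 26.3% lower). The sign of the change was the same on both slides for 44 of 48 members. The group medians were 0.83 and 0.78 for HIF, -0.21 and -0.22 for glycolysis, -0.26 and -0.23 for the pentose phosphate pathway and -0.07 and -0.06 for the TCA cycle on the first and second slide.

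The zero of the scale depended on the normalization, and the order of the groups less so. Scaled to the spike-in probes, the median of all features was 0.47 rather than -0.19, and the group medians were 1.46 for HIF, 0.44 for glycolysis, 0.44 for the pentose phosphate pathway and 0.61 for the TCA cycle. Under that scaling 15 members rose and none fell by limma, and none had an unadjusted p under 0.05 for a fall, beside 23.4% of all features (22.7% higher and 0.737% lower). Relative to the median of all features, the HIF median lay 0.99 higher under the 75th percentile and spike-in scalings, 0.88 higher after quantile normalization and 0.76 higher after normexp with quantile normalization. The glycolysis median lay between -0.03 and 0.05 from it under these 4 scalings, the pentose phosphate median between -0.10 and -0.03 and the TCA cycle median between 0.06 and 0.14.

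**Figure D5:**
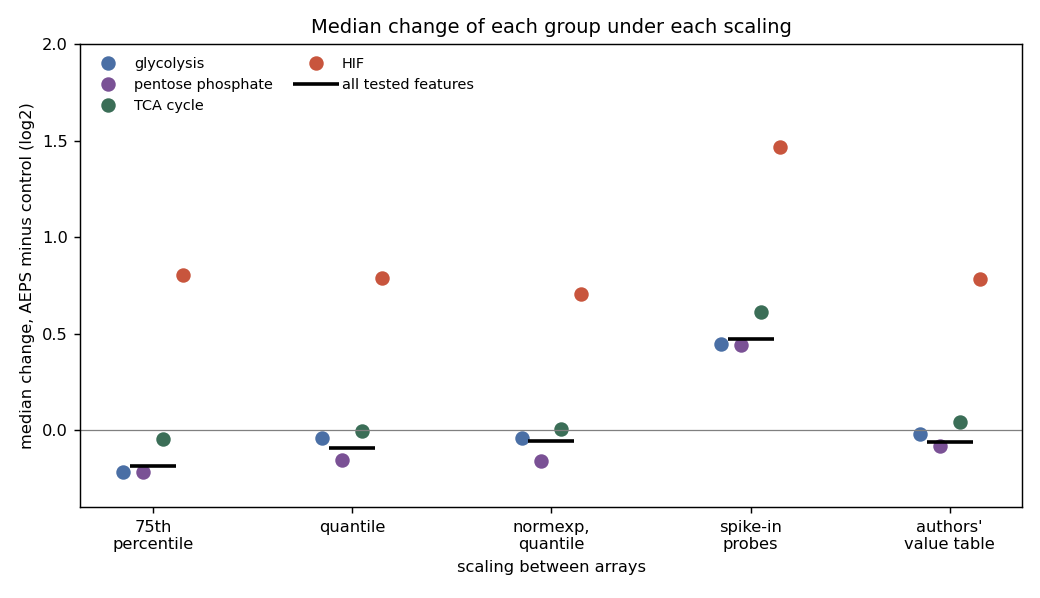
Median change with AEPS (log2) of the glycolysis, pentose phosphate, TCA cycle and HIF genes (points) and of all tested features (bar) under 4 scalings of the scanner arrays and in the authors' value table. The HIF point lies 0.76 to 0.99 above the bar under the 4 scalings, while the other 3 groups lie within 0.14 of it.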

How the data were processed

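RNA of 6 samples, 3 control and 3 AEPS, was read on 1-colour arrays. Per the file headers, Agilent Feature Extraction 10.7.1.1 gave each spot's intensity, and the processed intensity used here is background-subtracted, with no normalization between arrays. The authors' deposited value table holds normalized log2 values. Its sorted columns differ by at most 0.01, as after quantile normalization, and no source used here states its log offset. Replicate 3's scanner file ranks probes as the table's replicate 2 column, so replicate numbers differ between the sources.

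Control spots were left out and spots of 1 probe averaged. Probes entered the tests where both distinct arrays of a group, or of both groups, read them well above background, and the brightest such probe stood for its gene. With several probes per gene, 74 of 78 member probes were tested. No member probe was saturated. Tests used limma 3.58.1 (lmFit, eBayes) in R 4.3.3, without covariates, and were tried on simulated data.

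Same-numbered samples deviated together from their group means in the table (correlations 0.55, 0.35 and 0.39 for replicates 1, 2 and 3, others -0.48 to 0.23), as did arrays of 1 slide (0.59), so the replicate numbers pair the samples. Blocked values are given beside the members and the further genes named whose call they change.

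The 50 members and the further gene lists were chosen with earlier results of these data known. All members are named. Full values are given for members past the threshold in the scanner fit, or in the table with a change of 0.5 or more, and for the brightest probe of each group. Of the further lists, up to 4 genes past in the scanner fit are named, and Acod1, Slc2a3, Sdha, Epas1, Arnt, Myc and Txnip whatever their value; some genes this rule names are not reported here. Alternatives were quantile, spike-in and normexp (offset 50) scaling, filters on dim probes, probe rules, blocks, and leaving out each array or column. Promoters are from RefSeq (GRCm38.p6) and were matched by symbol; that of Idh3a was not used here.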

Additional observations from a re-analysis of the deposited data

How the results depend on the processing

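No member changed sign past the threshold under any alternative run. In the scanner fit, members higher and lower, 4 and 1 by the planned setting, numbered 8 and 2 after quantile normalization, 15 and 0 with spike-in scaling, 11 and 3 after normexp with quantile normalization, 12 and 7 with the slide as a replicate block, and 14 and 6 in the authors' table. Of all features, 6.59% and 5.55% were higher and lower after quantile normalization, 22.7% and 0.737% with spike-in scaling and 7.67% and 6.92% after normexp, beside 4.17% and 2.94% by the planned setting. Members numbered 5 and 2 with only probes well above background on every array, beside 5.37% and 4.13% of all features. Without a filter on dim probes limma called 0 and 0, as it did for all features, with 10 and 5 members at an unadjusted p under 0.05. With 1 scanner array left out, 0 to 1 were higher and 0 lower, with 6 to 10 and 3 to 5 at an unadjusted p under 0.05; the lone array of a group is then assumed to vary like the other group. With the mean of a gene's probes 3 were higher, Pfkfb3 being lost, and 1 lower, beside 4.08% and 2.89% of all features.

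Medians moved with the scaling. Under quantile, spike-in and normexp with quantile scaling they were -0.043, 0.44 and -0.043 for glycolysis, -0.15, 0.44 and -0.16 for the pentose phosphate pathway, and -0.0058, 0.61 and 0.0033 for the TCA cycle. HIF stood at 1.46 with spike-in scaling and 0.71 after normexp. In the table the first 3 groups stood at -0.02, -0.083 and 0.043. Without the filter glycolysis was -0.20 and HIF 0.53, and with the mean of probes -0.13 and 1.02. With 1 scanner array left out the ranges were -0.28 to -0.0917 for glycolysis, -0.37 to -0.10 for the pentose phosphate pathway, -0.11 to 0.011 for the TCA cycle and 0.68 to 0.93 for HIF. With 1 table column left out they were -0.14 to -0.068 for the pentose phosphate pathway, -0.0050 to 0.078 for the TCA cycle and 0.70 to 0.86 for HIF. Except where noted, the cause was not tested.

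The number of arrays, 2 or 3 per group, limits every value, and a gene that misses the threshold is not shown to be unchanged. Ldhb and Egln1 were not well above background, so the arrays give no change for them.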

Other observations

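Further genes of the same pathways passed in the value table. They were singled out after their values were seen. Within oxygen sensing, Hif1an, the asparaginyl hydroxylase that blocks HIF activity, rose by 1.18 ± 0.23 in the table (from 6.40 ± 0.31 to 7.57 ± 0.33, SD, n = 3; limma, adjusted p 0.0138). Egln2, a prolyl hydroxylase of the same family as Egln3, fell by 0.62 ± 0.07 (adjusted p 0.00204). Hmox1, the stress-induced heme oxygenase, rose by 0.91 ± 0.07 (adjusted p 0.000771), and Cited2, which competes with HIF for a coactivator, by 0.74 ± 0.07 (adjusted p 0.00168). In the scanner fit Hif1an was 2.14-fold higher, and the changes of Egln2, Hmox1 and Cited2 were -0.66, 0.96 and 0.66 on the log2 scale, none past the threshold by limma (adjusted p 0.0514 to 0.1), and all 4 passed with the slide as a replicate block (adjusted p 0.0336 to 0.0398). Other genes of the further HIF list fell in the table: Car9 (-0.69), Plod1 (-0.53), Bhlhe40 (-0.36) and Gys1 (-0.33), with adjusted p of 0.00259 to 0.04 by limma. Of the 23 genes tested, 9 rose and 6 fell there. Car9, Plod1, Bhlhe40 and Gys1 did not pass in the scanner fit, where Car9 alone had an unadjusted p under 0.05. With the slide as a block Car9 and Bhlhe40 passed (adjusted p 0.0346 and 0.0495).

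Among mitochondrial genes, both subunits of the pyruvate carrier rose slightly in the table (Mpc1 0.41 ± 0.06 and Mpc2 0.31 ± 0.06), as did Gpd2, the glycerol phosphate dehydrogenase that passes cytosolic electrons to the respiratory chain (0.74 ± 0.07, adjusted p 0.0012), and Tfam, which maintains mitochondrial DNA (0.54 ± 0.07, adjusted p 0.00329). Slc25a10, the dicarboxylate carrier, fell by 0.63 ± 0.15 (adjusted p 0.0247). None of these 5 passed in the scanner fit by limma, where all but Mpc2 had an unadjusted p under 0.05 and passed with the slide as a block (adjusted p 0.0346 to 0.0434).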
